A study of Mus musculus with 37 samples.

Results

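Usp17l and Tdpoz genes are 2 multicopy families that the mouse genome holds in tandem clusters, and both are known for transcripts that appear when the embryonic genome is first switched on at the two-cell stage. The Usp17l genes (Usp17la to Usp17le) encode deubiquitinating enzymes of the ubiquitin-specific protease 17-like type, which remove ubiquitin from other proteins. The Tdpoz genes (Tdpoz1 to Tdpoz5) encode proteins with a TRAF-type MATH domain and a BTB/POZ domain, the same domain pair as in Spop, an adaptor that brings substrates to the ubiquitin ligase built on Cul3. The 10 genes were taken by symbol from the 29294 genes listed in at least 1 of 4 RNA-seq tables. Of them, 8 were listed for ZH GV oocytes, 5 for CabZ GV oocytes, 10 for CabZ 2-cell embryos and 9 for the 2-cell embryos of the injection experiment.

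The study asked what the histone H3.3 chaperone complex of Hira, Cabin1 and Ubn1 does in the oocyte, using C57BL/6 mice. In the ZH and CabZ lines, Zp3-Cre, which is expressed in the female germline, acts on floxed Hira or floxed Cabin1, so that Het and KO oocytes alike come from females carrying the Cre, the Het females being heterozygous for the floxed allele (Zp3-Cre; Cabin1 flox/+ in the CabZ line). RNA-seq libraries were made from germinal vesicle (GV) stage oocytes, the fully grown stage before meiosis resumes, with 4 libraries of each genotype of either line. CabZ Het and CabZ KO 2-cell embryos gave 4 libraries each, and whether these embryos were fertilised or activated is not given in the sources used here. In the injection experiment, wild-type oocytes received GFP RNA (4 libraries) or Zscan4d RNA (labelled Zscan4 OE, 3 libraries) before activation and culture to the two-cell stage. ATAC-seq peak lists covered 3 CabZ Het and 3 CabZ KO pools of GV oocytes. Oocytes or embryos were pooled, and no label says that replicates came from separate animals, so that p-values measure the spread between these libraries, which may be technical.

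Reads on listed genes numbered 8996898 to 15082557 per ZH library, 9115869 to 12468944 per CabZ GV library, 5819316 to 8239522 per CabZ 2-cell library and 9885415 to 21869858 per injection library. In both stages of the CabZ line, Cabin1 was lower in every KO library than in any Het library (0.0125 to 0.0482 against 0.0891 to 0.159 FPKM in GV oocytes). Cabin1 was likewise lower in ZH KO (0.064 to 0.102 FPKM) than in ZH Het oocytes (0.259 to 0.346 FPKM). In CabZ 2-cell embryos Hira was also lower in KO (0.0147 to 0.0569 FPKM) than in Het libraries (0.193 to 0.268 FPKM). Lower Cabin1 was thus not particular to the CabZ line and does not by itself check its labels. Hira had 0 to 14 reads in each ZH library of either genotype, too few to check the ZH labels. Zscan4d stood at 69.4 to 149 FPKM in GFP libraries and 70.3 to 84.3 FPKM in the libraries labelled Zscan4 OE. It was thus not higher there. Zscan4c was at 101 to 184 FPKM in GFP libraries and at 116, 7.93 and 65.4 FPKM in replicates A to C labelled Zscan4 OE. Replicate B, with the 7.93, had 84.3 FPKM of Zscan4d. Reads of injected Zscan4d RNA and of the embryo's own gene were not told apart, so these levels do not settle the label. The paper reports raised Zscan4 in injected oocytes by qRT-PCR, immunofluorescence and western blot. All 12 oocyte markers were listed in every table, with sums of 1078 to 3742 FPKM.

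The 5 Usp17l genes lie on mouse chromosome 7 in 2 groups, and the 5 Tdpoz genes lie in 1 group on chromosome 3 (coordinates of the tables, GRCm38). Usp17ld (chr7:103249737-103252505) and Usp17lc (chr7:103415072-103419880) form the first group. Usp17le (chr7:104768049-104777470), Usp17lb (chr7:104840257-104842603) and Usp17la (chr7:104857009-104862667) form the second. The Tdpoz genes run from Tdpoz2 (chr3:93651542-93652686) through Tdpoz1 (chr3:93669333-93676310), Tdpoz4 (chr3:93796398-93797510) and Tdpoz3 (chr3:93826020-93827117) to Tdpoz5 (chr3:93960292-93961314). In the GENCODE M21 annotation, the longest transcript of Tdpoz2, Tdpoz3, Tdpoz4 and Tdpoz5 has 1 exon and that of each other member has 2 or 3.

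Promoter sequences of 7 of the 10 genes were found in RefSeq (GRCm38.p6), and those of Usp17l are shown because copies so alike nevertheless differed in level. Of promoters of 300 bases, the aligned bases were 92.1 to 97.4% identical between Usp17l genes and 70.8 to 76.4% identical between Tdpoz genes. Gaps were left out, so these values cover 215 to 278 bases for Usp17l pairs and 144 to 275 bases for Tdpoz pairs. In the 120-base stretches below, written 5′ to 3′ on the gene's own strand, capitals mark 3 motifs that were chosen after the sequences were read: CACACCC near the left end, the TATA-like TATAAA near the right end, and the longer form TATATAA in Tdpoz1. Matches to these motifs did not overlap one another.
Usp17la: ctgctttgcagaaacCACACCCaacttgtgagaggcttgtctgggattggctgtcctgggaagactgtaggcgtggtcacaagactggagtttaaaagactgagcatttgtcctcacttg
Usp17lb: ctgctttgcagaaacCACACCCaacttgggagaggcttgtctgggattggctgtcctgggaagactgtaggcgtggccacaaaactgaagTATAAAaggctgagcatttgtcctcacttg
Usp17lc: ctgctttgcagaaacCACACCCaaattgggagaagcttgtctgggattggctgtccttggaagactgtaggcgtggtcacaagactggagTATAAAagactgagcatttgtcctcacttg
Usp17ld: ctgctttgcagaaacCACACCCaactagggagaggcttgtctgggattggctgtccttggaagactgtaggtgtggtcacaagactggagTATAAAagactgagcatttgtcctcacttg
Tdpoz1: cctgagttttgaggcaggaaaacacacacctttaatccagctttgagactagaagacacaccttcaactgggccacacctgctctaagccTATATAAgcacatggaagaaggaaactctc
These stretches are chr7:104856880-104856999 (Usp17la, plus strand), chr7:104842585-104842704 (Usp17lb, minus), chr7:103416518-103416637 (Usp17lc, plus), chr7:103252586-103252705 (Usp17ld, minus) and chr3:93676314-93676433 (Tdpoz1, minus).

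TATAAA begins 75 bases after the start of CACACCC in Usp17lb, Usp17lc and Usp17ld. At the same distance, Usp17la has A2T, counted from 1 at the 5′ end of TATAAA. Counted from the annotated start, TATAAA begins at position -31 in Usp17lb, -88 in Usp17lc and -110 in Usp17ld. For Usp17lc this start lies inside the gene span given above, and thus differs from the start of that span. In Tdpoz1, TATATAA begins at position -60. The Tdpoz1 stretch was cut so that TATATAA falls in the column of TATAAA, so this alignment with the Usp17l stretches is by construction. On either strand, TATAAA occurs in 13.6% of the 32851 promoters of the table, TATATAA in 3.24% and CACACCC in 7.95%. None of these letters was found in the promoters of Tdpoz4 and Tdpoz5. No promoter of Usp17le, Tdpoz2 or Tdpoz3 was at hand.

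The copies also share transcript sequence, which limits how well reads can be assigned to one gene. Transcripts of the Usp17l genes were 90.4 to 97.9% identical in pairs, with Usp17lc and Usp17ld the most alike, and those of the Tdpoz genes 81.6 to 89.2%. These values cover aligned bases only, with gaps left out. Of all 150-base windows of a transcript, 29.4% of Usp17lc and 36.1% of Usp17ld occur in the other gene of that pair, against 2.27% of Usp17lb and 1.28% of Usp17la. Every window of Tdpoz5 (100%) occurs in Gm10697, and 33.4% of Tdpoz3 windows occur in Gm4982. Of Tdpoz1 windows, 12.4% occur in Gm9117, and 8.84% of Tdpoz2 windows occur in another gene. Recovered read numbers of members were whole, within 0.05, for 52.9% of low values in ZH, 40% in CabZ 2-cell and 47.4% in injection libraries, against 82.3 to 84.4% over all genes, but for 78.4% in CabZ GV libraries, against 79.5%. How shared reads were counted is not given in the sources used here. Levels of Tdpoz3, Tdpoz5, Usp17lc and Usp17ld are therefore uncertain as levels of single genes, and those of Tdpoz1 and Tdpoz2 are so in part.

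In ZH GV oocytes, Usp17l transcripts were almost absent from Het libraries and present in every KO library. Usp17lb was at 0.0613, 0.0996, 0.129 and 0.021 FPKM in ZH Het replicates 1 to 4 (1 to 5 reads) and at 3.03, 26.7, 80.9 and 28.9 FPKM in ZH KO replicates 1 to 4 (111 to 2520 reads). All KO libraries were above all Het libraries, and KO replicate 1 was far below the other 3. The means were 0.0776 ± 0.0467 and 34.9 ± 32.8 FPKM (SD, n = 4 each), a ratio of 450, or 252 without KO replicate 3. On the log2(FPKM + 1) scale the difference was 4.41 (SE 0.72, limma, adjusted p = 9.5e-04). Without KO replicate 1 it was 5.24, and without KO replicate 3 it was 3.80.

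Usp17lc, the copy most like Usp17ld, was at 0, 0.0324, 0.0502 and 0.0512 FPKM in ZH Het libraries and at 1.91, 5.82, 13.5 and 6.62 FPKM in ZH KO libraries. Its groups did not overlap either, and KO replicate 1 was again the lowest and replicate 3 the highest. The log2 difference was 2.73 (SE 0.39, limma, adjusted p = 4.4e-04). Usp17lb and Usp17lc were the 2 members tested by limma, which needs a mean of at least 1 FPKM, and both were called higher, at an adjusted p under 0.05 and a fold above 2. Among the 5792 genes tested, 10.5% were called higher. Both genes passed the filter only through the KO libraries.

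The other 3 Usp17l genes were at lower levels, again lowest in KO replicate 1 and highest in KO replicate 3. Usp17la had no reads in any ZH Het library and stood at 0.0113, 0.608, 1.72 and 0.313 FPKM in KO libraries, at least 77.2-fold higher on a floor of 3 reads over the Het group, or at least 36.1-fold without KO replicate 3. Usp17ld had 1 read in 1 Het library and 2 to 158 reads in KO libraries (1.59 ± 1.88 FPKM, SD, n = 4). Usp17le, at 0 to 0.0413 FPKM in Het libraries, stood at 0.0544, 0.851, 1.24 and 0.748 FPKM in KO libraries. For each of the 3, exact permutation tests (two-sided) gave p = 0.0286, the smallest that 4 against 4 allows, and 0.0571 after Benjamini-Hochberg adjustment over 12 such tests in all tables, so none passed. A wider gap between the groups could not lower this p, so the group size and the number of tests limit what these tests can decide. Summed over the family, Usp17l stood at 0.0826 to 0.179 FPKM in Het and 5.05 to 102 FPKM in KO libraries, a ratio of means of 344, or 198.5 without KO replicate 3. The 14 listed granulosa and cumulus markers summed to 0.459 to 0.797 FPKM in Het and 1.1 to 2.55 FPKM in KO libraries, and the 12 oocyte markers to 2673 to 2736 FPKM (median 2724) in Het and 1427 to 2773 FPKM (median 1935) in KO libraries. The part of either in the differences was not tested. In pooled oocytes, fewer cells with a transcript and less of it per cell cannot be told apart.

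Tdpoz1 showed a smaller and more even difference in the same oocytes. It was at 0.0309, 0.0223, 0.0778 and 0.0564 FPKM in ZH Het libraries (2 to 9 reads) and at 0.43, 0.449, 0.395 and 0.465 FPKM in ZH KO libraries (37 to 50 reads). No libraries of the groups overlapped and KO replicate 1 was not low. The ratio of means was 9.29, with exact p = 0.0286 (permutation test, adjusted 0.0571). Tdpoz5 (0.153 ± 0.124 and 0.303 ± 0.16 FPKM, SD, n = 4 each) overlapped between genotypes (exact permutation p = 0.229), and Tdpoz3 had 3 reads in a single KO library. Counting all 8 listed members, 6 had every KO library above every Het library, which 21.8% of all genes with a value above 0 also had. In ZH KO replicate 1, where Usp17l was lowest, Zscan4d was at 33.9 FPKM against 42.3 to 80.8 FPKM in the other KO libraries, and Zscan4c at 33.6 against 25.8 to 52.3 FPKM. The part of this library in the differences beyond the value without it was not tested.

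In CabZ GV oocytes all 5 listed members stayed below the filter of 1 FPKM, so limma tested none. Usp17lb was at 0.102, 0, 0.0384 and 0.119 FPKM in CabZ Het libraries (0 to 3 reads) and at 2.34, 0.232, 0.133 and 0.467 FPKM in CabZ KO libraries (3 to 55 reads). The lowest KO library was just above the highest Het library, and KO replicate 1 alone carried most of the reads. Tdpoz1 was at 0.149, 0.0129, 0.116 and 0.147 FPKM in Het and 0.22, 0.432, 0.289 and 0.533 FPKM in KO libraries, again without overlap. For both genes the exact permutation test gave p = 0.0286 (adjusted 0.0571).

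Usp17lc, Usp17le and Tdpoz5 overlapped between CabZ Het and CabZ KO oocytes (exact permutation p = 0.2, 0.657 and 0.657). Groups without overlap in the higher direction were thus seen for 2 of 5 members, against 10.5% of all genes with a value above 0. The summed Usp17l level was 8.54 times higher in CabZ KO than in CabZ Het oocytes, but 3.18 times higher without KO replicate 1. That library also had the highest Zscan4c level, 20 FPKM against 2.34 to 7.42 FPKM in the other KO libraries. Differences between the ZH and CabZ lines were not tested.

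**Figure D1:**
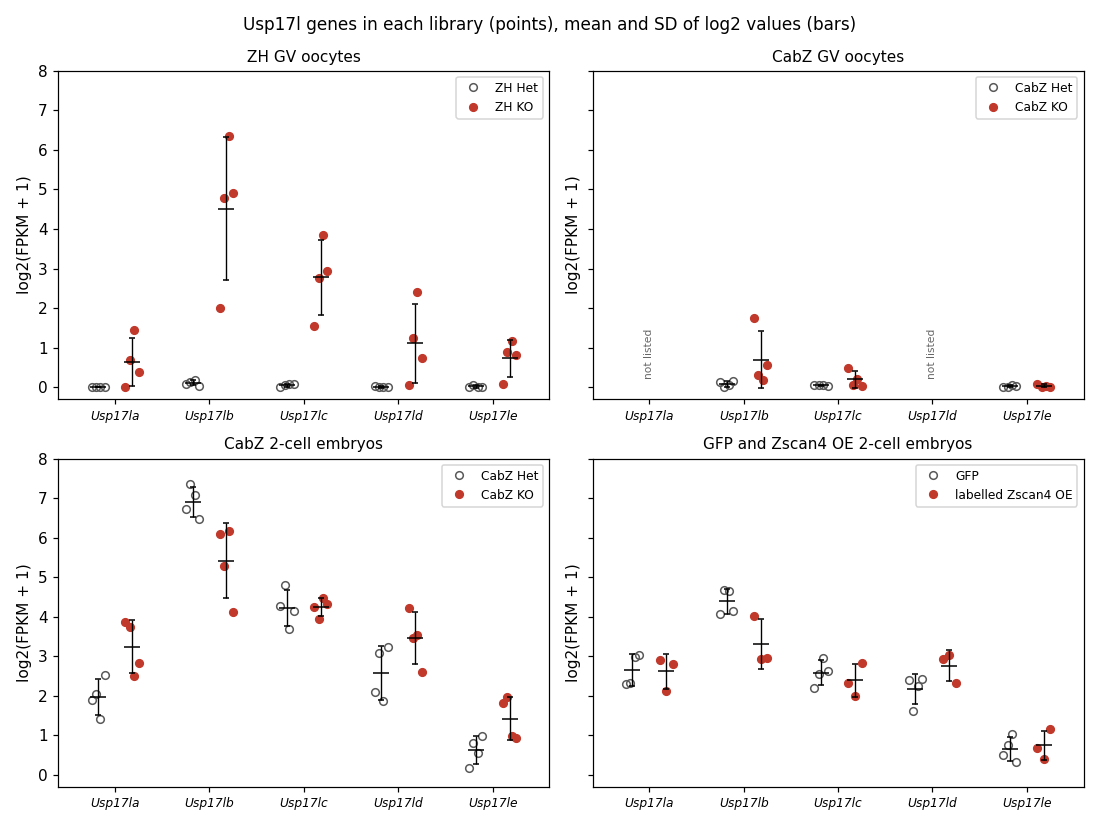
Levels of the 5 Usp17l genes as log2(FPKM + 1) in each library of the 4 tables, with open points for Het or GFP libraries, filled points for KO or Zscan4 OE libraries, and bars for the mean and SD of the log2 values. ZH KO libraries lie above ZH Het libraries for all 5 genes, while in CabZ 2-cell embryos Usp17lb is lower and Usp17la higher in KO libraries.

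In 2-cell embryos both families were abundant. Per kilobase of the longest transcript and 1000000 reads on genes, CabZ Het embryos had 183 ± 49.2 reads of Usp17lb (SD, n = 4), followed by Tdpoz5 (68.4 ± 15.4), Tdpoz1 (54.3 ± 13.3), Usp17lc (36.8 ± 12.4) and Tdpoz2 (17.6 ± 7.42). Below these came Tdpoz4 (12.6 ± 9.52), Usp17ld (7.64 ± 4.06), Usp17la (6.51 ± 2.7), Usp17le (2.91 ± 1.85) and Tdpoz3 (1.17 ± 1.43). In this order of levels, libraries did not overlap between Usp17lb and Tdpoz5, and each later pair of neighbours overlapped. In GFP embryos the same measure put Usp17lb at 45.9 ± 10.1 and Tdpoz5 at 38.2 ± 9.76 reads, whose libraries overlapped. In ZH KO GV oocytes it was 77.8 ± 72.3 for Usp17lb and 1.95 ± 0.157 for Tdpoz1. Tables were normalised apart, so levels between tables were not tested.

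CabZ KO 2-cell embryos had less Usp17lb, the most abundant member, and more Usp17la than CabZ Het embryos. Usp17lb was at 104, 162, 133 and 87.6 FPKM in Het libraries and at 66.9, 38.2, 70.7 and 16.3 FPKM in KO libraries. All KO libraries lay below all Het libraries, with KO replicate 4 the lowest. The log2 difference was -1.48 (SE 0.43, limma, adjusted p = 0.016), a ratio of means of 0.395. Usp17la was at 2.74, 3.1, 1.66 and 4.72 FPKM in Het and 13.6, 12.3, 4.7 and 6.15 FPKM in KO libraries. Its lowest KO library fell just under its highest Het library, and the log2 difference was 1.27 (SE 0.35, limma, adjusted p = 0.013).

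The remaining Usp17l genes were not called. Usp17le (0.582 ± 0.37 and 1.82 ± 1.03 FPKM, SD, n = 4 each) differed by 0.79 on the log2 scale, under the fold threshold, with a limma adjusted p of 0.045. It passed the filter of 1 FPKM only through the KO libraries, and without the filter its limma adjusted p was 0.102. Usp17ld (5.48 ± 2.91 and 10.8 ± 5.13 FPKM) differed by 0.88 with an adjusted p of 0.092, and without KO replicate 4 by 1.16 with an adjusted p of 0.032. Usp17lc was at 18.4 ± 6.2 and 18.1 ± 2.83 FPKM, a log2 difference of 0.02 (SE 0.25, limma, adjusted p = 0.95).

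The make-up of the Usp17l family shifted accordingly, and a share within a library does not depend on how libraries were scaled. Usp17lb took 59.6 to 79.9% of a library's Usp17l reads in CabZ Het and 20.4 to 50% in CabZ KO embryos, without overlap. Usp17la took 2.41 to 7.74% in Het and 8 to 24.6% in KO embryos. Usp17ld took 1.89 to 6.76% and 7.55 to 12.4%, and Usp17le 0.316 to 2.67% and 2.76 to 9.63%. All 3 minor shares were thus larger in every KO library than in any Het library, whereas that of Usp17lc overlapped (14.6 to 24.6% and 22 to 49%). Shares of a family depend on one another, so a smaller Usp17lb share by itself makes the others larger. By level, Usp17ld and Usp17le overlapped between genotypes and were not called. In the injection experiment, Usp17lb took 33.1 to 49.7% in GFP libraries and 15.6 to 30.8% in the libraries labelled Zscan4 OE, while Usp17la overlapped (19.6 to 33.7% and 26.4 to 33.5%). The Usp17lb share of GFP libraries thus lay within the range of CabZ KO embryos, in a table normalised apart. These shares are descriptions without a test.

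**Figure D2:**
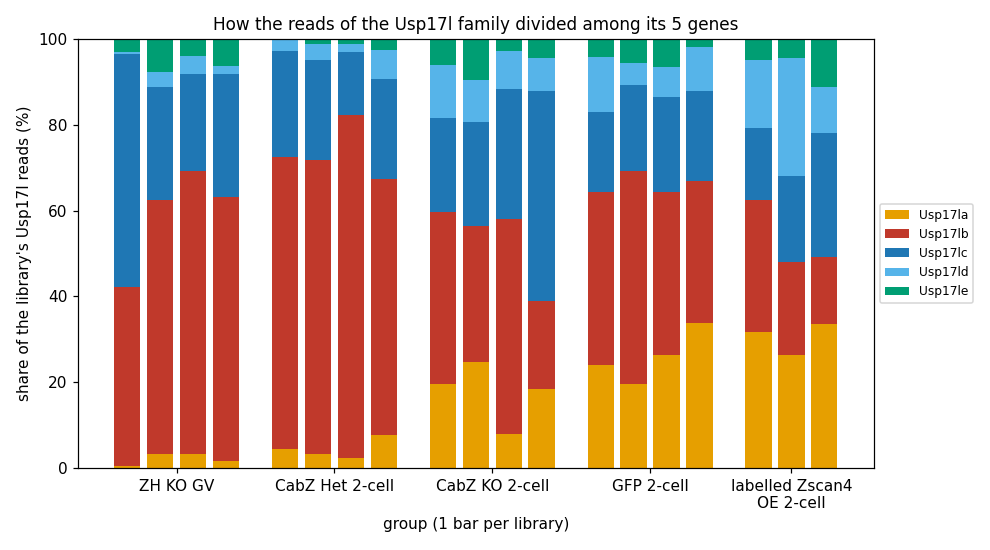
Share of each library's Usp17l reads (%) that was counted on each of the 5 genes, with 1 bar per library and the groups side by side. Usp17lb holds 59.6 to 79.9% in CabZ Het 2-cell embryos and 20.4 to 50% in CabZ KO 2-cell embryos.

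Among the Tdpoz genes, 3 fell in CabZ KO 2-cell embryos. Tdpoz1 was at 20.6, 16.4, 12.7 and 22.6 FPKM in Het and 10, 7.04, 5.97 and 1.91 FPKM in KO libraries, with a log2 difference of -1.52 (SE 0.39, limma, adjusted p = 0.0084). Tdpoz2 was at 19.1, 26.8, 15.4 and 9.01 FPKM in Het and 6.71, 1.95, 5.93 and 1.44 FPKM in KO libraries, with a log2 difference of -1.97 (SE 0.44, limma, adjusted p = 0.0046). For both, no KO library reached a Het library. Tdpoz4 was at 7.92, 26.6, 10.3 and 5.6 FPKM in Het and 3.18, 2.2, 4.11 and 0 FPKM in KO libraries (log2 difference -2.02, SE 0.57, limma, adjusted p = 0.014), also without overlap.

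Tdpoz5, the most abundant Tdpoz gene, was at 68.4 ± 15.4 FPKM in Het and 45.6 ± 22.7 FPKM in KO embryos (SD, n = 4 each) and was not called (log2 difference -0.72, limma, adjusted p = 0.16). Its copy Gm10697, which holds every window of Tdpoz5, had a log2 difference of -0.73 (adjusted p = 0.18). Gm9117, which holds 12.4% of Tdpoz1 windows, was called lower (log2 difference -1.1, limma, adjusted p = 0.017). Gm9117 averaged 0.00623 and 0.144 FPKM in ZH Het and KO oocytes, and 0.0137 and 0.269 FPKM in CabZ Het and KO oocytes. In the injection experiment it averaged 1.03 FPKM in GFP libraries and 0.117 FPKM in the others. The part of shared reads was not tested. Tdpoz3 was at 1.17 ± 1.43 and 2.48 ± 1.82 FPKM, with a log2 difference of 0.81 (limma, adjusted p = 0.19). Of the 10 members tested, 4 were called lower and 1 higher, beside 20.4% and 16.9% of the 7798 genes tested. The libraries of the groups did not overlap in the lower direction for the 4 called lower, beside 28.1% of genes tested. KO replicate 4 was the lowest library for Usp17lb, Tdpoz1, Tdpoz2, Tdpoz4 and Tdpoz5, and had 71.5 FPKM of Zscan4c against 235 to 287 FPKM in the other KO libraries. All 4 lower calls held with each library left out in turn. Without the filter on low values Usp17lb and Tdpoz4 lost their calls (limma, adjusted p = 0.061 and 0.058), and Tdpoz4 also did with a pseudocount of 0.1 (adjusted p = 0.055). Granulosa and cumulus markers summed to 4.26 to 6.71 FPKM in Het and 6.14 to 11.2 FPKM in KO embryos, and their part was not tested.

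**Figure D3:**
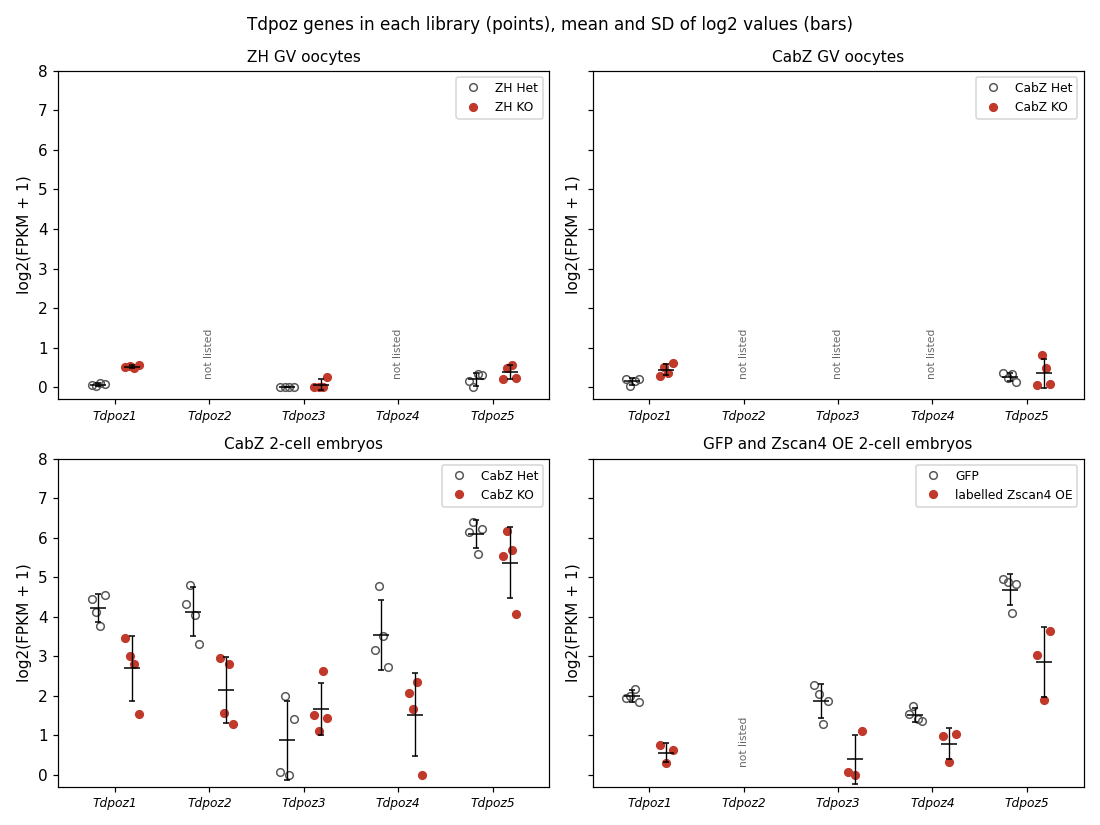
Levels of the 5 Tdpoz genes as log2(FPKM + 1) in each library of the 4 tables, drawn as for the Usp17l genes. In CabZ 2-cell embryos the KO libraries of Tdpoz1, Tdpoz2 and Tdpoz4 lie below the Het libraries, and in the injection experiment all 4 listed Tdpoz genes lie lower in the libraries labelled Zscan4 OE.

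In the injection experiment, Tdpoz1 fell in the libraries labelled Zscan4 OE. It was at 2.84, 3, 3.55 and 2.59 FPKM in GFP replicates A to D and at 0.686, 0.229 and 0.546 FPKM in the libraries labelled Zscan4 OE, with a log2 difference of -1.43 (SE 0.17, limma, adjusted p = 0.0089). The groups were well apart, but without the filter on low values the adjusted p was 0.064 and the call was lost. Of the 8 members tested, this was the only one called, beside 1.42% of the 4293 genes tested that were called lower and 0.0233% called higher. The other 3 listed Tdpoz genes also had every library labelled Zscan4 OE below every GFP library but missed the threshold. Tdpoz1, Tdpoz3 and Tdpoz4 averaged under 1 FPKM in the libraries labelled Zscan4 OE and passed the filter only through the GFP libraries.

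Tdpoz5 was at 29.8, 28.2, 16.2 and 27.5 FPKM in GFP and 7.17, 2.75 and 11.5 FPKM in labelled Zscan4 OE libraries (log2 difference -1.83, SE 0.39, limma, adjusted p = 0.058). Tdpoz3 was at 3.88, 3.15, 1.46 and 2.63 FPKM in GFP libraries and at 0.0455, 0 and 1.16 FPKM in the others (log2 difference -1.48, limma, adjusted p = 0.061). Both were called once the library labelled Zscan4 OE replicate C was left out, with adjusted p of 0.022 and 0.017. Tdpoz4 was at 1.88 ± 0.356 FPKM (SD, n = 4) in GFP libraries and 0.261 to 1.05 FPKM in the others (log2 difference -0.73, limma, adjusted p = 0.12). Summed over the listed Tdpoz genes, levels were 22.9 to 38.4 FPKM and 3.24 to 14.3 FPKM. The 5 listed granulosa and cumulus markers also summed lower, to 0.824 to 1.4 FPKM in GFP libraries and 0.473 to 0.684 FPKM in the others, and their part was not tested.

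The Usp17l genes differed less in this experiment, and none was called. Usp17lb was at 15.9, 24.6, 23.9 and 16.8 FPKM in GFP libraries and at 15.3, 6.62 and 6.79 FPKM in libraries labelled Zscan4 OE. The groups did not overlap, although replicate A came close to the lowest GFP library. The log2 difference was -1.08 (SE 0.3, limma, adjusted p = 0.11), and without that replicate A it was -1.44 with an adjusted p of 0.03. Usp17la (5.47 ± 1.74 and 5.31 ± 1.71 FPKM) and Usp17lc (5.1 ± 1.3 and 4.39 ± 1.6 FPKM) had limma adjusted p of 0.95 and 0.67. Usp17ld was at 3.62 ± 1.06 and 5.94 ± 1.71 FPKM (log2 difference 0.59, limma, adjusted p = 0.24), and Usp17le, under the filter, overlapped (exact permutation p = 0.714). Of the 8 members tested, 5 had lower groups without overlap, beside 10.5% of genes tested. Among these 5, Tdpoz1, Tdpoz3 and Tdpoz4 had passed the filter only through the GFP libraries.

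**Figure D4:**
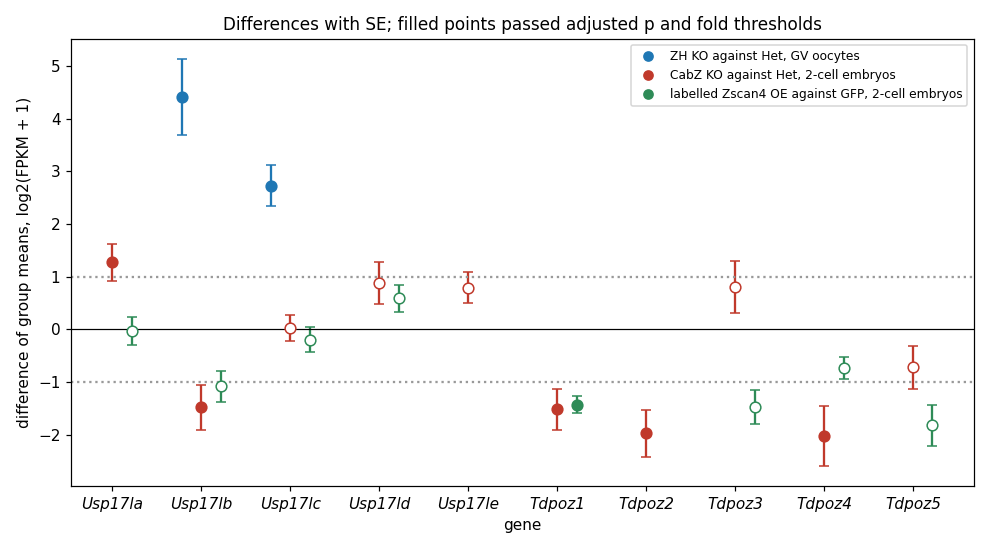
Difference of group means of log2(FPKM + 1) with its SE for every member tested by limma, in ZH GV oocytes, CabZ 2-cell embryos and the injection experiment. Filled points passed both thresholds, dotted lines mark a fold of 2, and only the ZH points for Usp17lb and Usp17lc lie above 2 on this scale.

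Genes around and within the clusters were described in the same way. They include Gm9117, which lies among the Tdpoz genes and shares windows with Tdpoz1, so the neighbours are not all free of shared reads. In ZH GV oocytes, 0 of 10 tested genes within 500 kb of a member were called higher by limma and 1 lower (3 and 4 at an unadjusted p under 0.05), beside 10.5% and 7.2% of all genes tested. The gene called lower was Dnajc19-ps (24 ± 3.81 and 7.02 ± 1.42 FPKM, SD, n = 4 each). Gm5900 (57.2 ± 3.62 and 84.5 ± 13 FPKM) and Mrpl9, a mitochondrial ribosomal protein gene (13.3 ± 1.94 and 16.1 ± 3.91 FPKM), stayed under a fold of 2 there. In CabZ GV oocytes Gm5900 (119 and 122 FPKM) and Gm45272 (14.2 and 24.8 FPKM) stayed under a fold of 2 and Dnajc19-ps was lower (63.4 and 30.2 FPKM, limma, adjusted p = 0.011). In CabZ 2-cell embryos, 5 of 32 tested neighbours were called higher and 5 lower, 15.6% each, beside 16.9% and 20.4% of all genes tested. The 5 called lower (Gm5543, Gm5852, Gm9125, Gm9117 and Them4) lay on chromosome 3, by the Tdpoz genes. Of those called higher, Gm5900, Gm45272, Olfr624 and Olfr585 lay on chromosome 7, by the Usp17l genes, and S100a10 on chromosome 3. Shares by chromosome were not computed. Gm5543, the most abundant neighbour, fell from 140 ± 10.7 to 58.3 ± 31.5 FPKM (SD, n = 4 each), Gm9124 was at 45.1 and 45.8 FPKM, and Gm5900 rose from 10.3 to 66.8 FPKM. In the injection experiment, 3 of 21 neighbours were called lower, 14.3% beside 1.42% of all genes tested, and 11 were lower at an unadjusted p under 0.05 (median log2 difference -0.935). The 3 were Gm5543 (34 and 10.6 FPKM, limma, adjusted p = 0.026), Gm4778 and Gm9125, which lie on chromosome 3. Gm9121 (20.7 and 14.6 FPKM) and Gm5542 (21.4 and 7.62 FPKM) were not called.

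Other genes of ubiquitin removal and of Cul3 ligases were read in the same way. Of 20 tested ubiquitin-specific proteases and relatives in ZH GV oocytes, 0 were called higher by limma and 2 lower, beside 10.5% and 7.2% of all genes tested. At an unadjusted p under 0.05, 1 was higher and 10 lower (limma). The median log2 difference was -0.303, beside -0.0411 over all genes. The 2 called lower were Usp46 (6.7 and 1.9 FPKM) and Usp39 (3.65 and 1.32 FPKM). In CabZ 2-cell embryos 3 of 23 were called higher and 0 lower, beside 16.9% and 20.4% of all genes tested. The 3 were Usp2, Usp51 and Uchl1, a ubiquitin hydrolase abundant in oocytes (27.9 and 100.4 FPKM). At an unadjusted p under 0.05, 10 were higher and 2 lower (limma), with a median of 0.165, beside -0.11. For the Spop and Cul3 list in ZH GV oocytes, 0 of 18 were called higher by limma and 2 lower, Kbtbd7 and Kctd13, beside the same 10.5% and 7.2%. At an unadjusted p under 0.05, 3 were higher and 8 lower (limma, median -0.366). In CabZ 2-cell embryos 2 of 26 rose (Ube2m and Dcun1d1, both of neddylation, the step that activates cullins) and 2 fell, Kbtbd4 and Cul3 itself (5.42 and 1.38 FPKM, log2 difference -1.44, limma, adjusted p = 3.4e-04). These were 7.69% each, beside 16.9% and 20.4% of all genes tested. At an unadjusted p under 0.05, 7 of the 26 were higher and 11 lower (limma). Neither list had a call by limma in CabZ GV oocytes or in the injection experiment, where 3 and 2 proteases and 4 and 1 ligase genes had an unadjusted p under 0.05.

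Two-cell-stage genes were read beside the members. In ZH GV oocytes 13 of 19 tested were called higher and 1 lower (median 1.61), beside 10.5% and 7.2% of all genes tested, with Gm5039 (0.669 and 34.9 FPKM), Zscan4c (1.19 and 38.9 FPKM) and Zscan4d (2.57 and 59 FPKM) the largest. In CabZ GV oocytes 3 of 14 were called higher and 1 lower (median 0.507), beside 2.07% and 0.836% of the 6339 genes tested. In CabZ 2-cell embryos 13 of 42 were called higher and 1 lower (31% and 2.38%, beside 16.9% and 20.4% of all genes tested, with a median of 0.66 beside -0.11), whereas the members gave 1 higher and 4 lower calls. In the injection experiment 0 of 39 were called higher by limma and 3 lower (1 and 23 at an unadjusted p under 0.05, median -0.823, beside 0.0309), beside 0.0233% and 1.42% of all genes tested, with Rfpl4b the lowest (30.1 and 1.7 FPKM).

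Likeness was described by Pearson's r over the 31 libraries, each value taken relative to its own table's control mean, among 3297 genes. For the summed Usp17l level the 5 closest genes were Zscan4d (r = 0.927), Sycp3 (0.91), Gpx1 (0.895), H2afz (0.882) and Hsd17b10 (0.879). The summed Usp17l level differed most in ZH KO libraries, so those libraries weigh most in r. There the 5 genes had log2 differences of 2.58 to 4.13. The differences were -0.0523 to 1.33 in CabZ GV oocytes, -1.12 to 0.0995 in CabZ 2-cell embryos and -1.01 to -0.0941 in the injection experiment. For the summed Tdpoz level they were Gm6851 (0.877), Calm2 (0.848), C1d (0.846), Obox3-ps5 (0.817) and Dnajb9 (0.815). Libraries of one table share their control mean, and no p was computed.

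ATAC-seq peaks at the members were counted in CabZ GV oocytes. Within 500 bp of the start site, 8 of 10 members had no peak in any of the 6 libraries. The share of all genes without such a peak was not computed, so this count does not set the members apart from other genes. Usp17le had 1 peak in CabZ KO library C (3.44-fold enrichment over background, -log10 q of 1.42), with its summit 408 bp before the start. The edge of 1 peak in CabZ Het library C reached the window of Tdpoz3, but its summit lay 1494 bp before the start. Within the gene span, Usp17le alone had peaks, in 2 Het libraries and 1 KO library. Start sites here are those of the gene spans. The promoter stretch printed for Usp17lc therefore lies outside its start site window, but inside its gene span, which had no peak. Over the 3 cluster spans, 574536 bp in all, the Het libraries had 13, 7 and 17 peaks of 43399, 67074 and 111327, and the KO libraries 7, 6 and 4 peaks of 46070, 19160 and 29600. As peaks per 1000000 peaks of a library this was 186 ± 102 in Het and 200 ± 98.3 in KO oocytes (SD, n = 3 each, two-sided exact permutation p = 0.8, smallest possible 0.1). The authors excluded reads without a unique alignment, and peak lists hold no value for places without a call, so that closed chromatin and unmappable copies cannot be told apart.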

How the data were processed

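Members, gene lists and tests were chosen with earlier results of these data known. Reads were trimmed, aligned to GRCm38 with STAR 2.5.3a and adjusted to FPKM in Partek Flow by the authors. The deposited ZH and injection tables hold FPKM over the whole gene span, introns included, with 0.01 and 0.001 added by the authors. The deposited CabZ tables hold score values, divided by the span 2 times by the authors as the values show. FPKM were restored from them by subtracting 0.01, multiplying by the span and scaling to reads, which was not foreseen in the design. Read numbers were worked back from the smallest step between values of a library. Per the methods, the authors called ATAC-seq peaks per library with MACS2, and the deposited lists give fold enrichment as a ratio, a score, and -log10 p and q values. The authors' counting of shared reads is not given in the sources used here.

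Genes averaging 1 FPKM or more over a table's libraries entered the test on log2(FPKM + 1) with limma 3.58.1 in R 4.3.3, one table at a time. Calls needed a Benjamini-Hochberg adjusted p under 0.05 over all genes tested and a fold above 2. Members under the filter were compared by two-sided exact permutation of FPKM. On simulated data, 89.6 to 100% of 4- or 8-fold changes and 28.4 to 50.7% of 2-fold changes were called over the 4 tables. Every member is named, with the 3 most abundant neighbours, up to 3 called genes at each end of a list, and the 5 genes most like each family. Alternatives were another pseudocount, filter, scaling, variance model and fold rule, a replicate block and each library left out. Reads are not molecules, so recovered numbers cover counting error only.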

Additional observations from a re-analysis of the deposited data

Results flagged for a closer look

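Of 67 groups of 4 libraries examined for members and family sums, 6 had a library far from the others, and chance flags about 1 in 20 groups. In CabZ KO GV oocytes, replicate 1 stood apart with 2.34 FPKM of Usp17lb and 2.8 FPKM of summed Usp17l. In ZH KO GV oocytes, replicate 1 was low for the summed Tdpoz level (0.587 FPKM) and replicate 4 high for Tdpoz3 (0.2 FPKM, 3 reads). Usp17ld in ZH Het replicate 1 (0.026 FPKM, 1 read) and Tdpoz5 in GFP replicate C (16.2 FPKM) also stood apart.

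Usp17lb and Tdpoz1 had differences of opposite sign at the 2 stages of the CabZ line. The KO minus Het difference on the log2(FPKM + 1) scale was 0.60 for Usp17lb in GV oocytes and -1.48 in 2-cell embryos, and 0.30 and -1.52 for Tdpoz1. Every KO library lay on the same side of every Het library in each case. In GV oocytes the Usp17lb difference was 0.26 without KO replicate 1, and neither gene passed its exact permutation test after adjustment (0.0571). Both had reached the smallest unadjusted p that this group size allows. The difference between stages was not tested.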

How the results depend on the processing

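The number of members called higher in ZH GV oocytes was 2 and became 1 at a mean of at least 5 FPKM. It was 3, with Usp17ld added, after scaling to the reads of the table. In CabZ 2-cell embryos 1 member was called higher, but 3 with median scaling, 2 with fold as ratio of means, 2 with no fold threshold and 0 on values as deposited. The number called lower there was 4, but 3 with a pseudocount of 0.1 (Tdpoz4 lost), 2 without a filter (Usp17lb and Tdpoz4 lost) and 0 on values as deposited, where 2 members could be tested. In the injection experiment 1 member was called lower, but 3 with quantile normalisation, 3 with median scaling and 0 without a filter. Median scaling moved the median log2 difference of all genes from -0.11 to 0.13 in CabZ 2-cell embryos (1320 higher and 1594 lower calls became 1757 and 1126), from -0.0411 to -0.189 in ZH GV oocytes (606 and 417 became 471 and 627) and from 0.0309 to 0.129 in the injection experiment. With each library left out in turn, members called higher in CabZ 2-cell embryos ranged from 1 to 2 and members called lower in the injection experiment from 1 to 3. Members under the filter with an unadjusted exact p under 0.05 were 4 in ZH GV oocytes (1 to 4 with a library left out, 1 without any one Het library) and 2 in CabZ GV oocytes (0 to 3, 0 without any one Het library).

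Replicate numbers did not pair the libraries, since same-numbered deviations correlated at -0.407 to 0.395 in ZH GV oocytes and not every library correlated best with its own number in any table. With the replicate block, 2 members were called higher in ZH GV oocytes, 1 higher and 4 lower in CabZ 2-cell embryos, and 0 in the injection experiment, where Tdpoz1 had a log2 difference of -1.48 and an adjusted p of 0.1 and GFP replicate D was dropped.

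Directions turned only for values near 0 or without a call. Usp17lc in CabZ 2-cell embryos was -0.024 as a ratio of means. With a library left out it ranged from -0.16 to 0.209, at -0.16, -0.0079, -0.054 and -0.011 without Het replicate 3, Het replicate 4, KO replicate 3 or KO replicate 4, and with median scaling it was 0.26. Usp17la in the injection experiment was 0.061 with median scaling and 0.085 with the replicate block, and ranged from -0.185 to 0.211 with a library left out, above 0 without GFP replicate C or D or the library labelled Zscan4 OE replicate B. Usp17lc there ranged from -0.417 to 0.0016. The ATAC-seq difference of 14.5 peaks per 1000000 turned to -26 and -1.88 without Het replicate B or C and to -42 without KO replicate B, and ranged from -42 to 71.5. The causes were not tested. Low read numbers limit every GV value of a member other than Usp17lb and Usp17lc in ZH KO libraries.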
